A study of Mus musculus with 462 samples.

Results

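The clones described here carry an insertion labelled pAS at 40 bp in linc1319, a long noncoding RNA locus of mouse chromosome 2 that lies beside the coding gene Sfmbt2. They were chosen by their label, linc1319-pAS-40bp with the date label 150216, and they are 3 of the 439 RNA count libraries among the 462 samples of the series. A pAS is in this study a polyadenylation signal, placed so that transcription from the promoter ends early. The reference was all 12 clones labelled Control with the same date label.

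Every clone is a separate line of mouse embryonic stem cells from an F1 hybrid of the strains 129 and Castaneus (F1 2-1). The sample labels give the line as female, while the growth protocol speaks of male cells. All clones were grown on gelatin and laminin in serum-free 2i/LIF medium, which contains LIF and the inhibitors PD0325901 and CHIR99021, and the labels name no further treatment of the Control clones. Polyadenylated RNA was sequenced after hybrid selection, so that only captured transcripts were read, and each transcript has 2 counts, 1 for each parental allele. The labels give no homozygous or heterozygous state for a clone and do not say which allele carries the insertion. The sources used here also do not say which strain the first and the second column stand for. Also of this date were 4 clones with a pAS at 0.5 kb and 9 clones labelled linc1319-PromoterInsertion.

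A polyadenylation signal is a stretch of RNA at which the cleavage machinery cuts the nascent transcript and adds a poly(A) tail, after which the polymerase is released. Placed just after a start site, it leaves the promoter in the genome while most of the RNA downstream is no longer made, and placed further away it lets more of the locus be transcribed first. In an F1 hybrid with the insertion on 1 chromosome, a change that acts on its own chromosome alone shows on 1 allele. A change that acts through a diffusible product can show on both. With the insertion on both chromosomes, either kind can show on both alleles. Sfmbt2 encodes a Polycomb group protein with MBT repeats that, in mouse, has a known part in trophoblast and placenta.

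The linc1319 row covers chr2:10249878-10286859 of the mm9 build, and the Sfmbt2 row covers chr2:10292078-10516880, with a gap of 5.218 kb between them. In RefSeq (GRCm38.p6) the long noncoding RNA next to Sfmbt2 on that side is Gm13261, on the opposite strand. The files do not pair that name with linc1319. The windows at a start of Gm13261 and at the first listed start of Sfmbt2 are shown because the insertion is labelled by its distance in bases and Sfmbt2 is the neighbour with the largest change. Both are given 5′ to 3′ on the gene's own strand, from 250 bases before the start to 50 after it, with CCAAT, or its reverse complement ATTGG, in capitals.
Gm13261, chr2:10365112-10365411, minus strand: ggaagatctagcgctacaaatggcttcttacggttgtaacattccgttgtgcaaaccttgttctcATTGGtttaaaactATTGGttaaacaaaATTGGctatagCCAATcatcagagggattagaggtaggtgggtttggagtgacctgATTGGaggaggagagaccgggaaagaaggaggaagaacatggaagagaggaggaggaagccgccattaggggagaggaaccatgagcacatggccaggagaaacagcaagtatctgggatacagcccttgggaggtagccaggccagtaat
Sfmbt2, chr2:10370201-10370500, plus strand: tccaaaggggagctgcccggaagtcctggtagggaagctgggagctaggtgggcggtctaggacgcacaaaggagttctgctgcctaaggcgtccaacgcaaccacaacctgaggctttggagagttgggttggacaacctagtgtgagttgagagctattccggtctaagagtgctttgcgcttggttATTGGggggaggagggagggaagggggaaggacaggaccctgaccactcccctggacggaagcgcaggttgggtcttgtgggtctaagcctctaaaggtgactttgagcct
The Gm13261 window held 5 matches to CCAAT, counted on both strands with overlaps allowed, and the Sfmbt2 window held 1. Of the 32851 RefSeq windows of this length, 37.4% held at least 1 match and 0.271% held 5 or more. Neither window held TATAAA on either strand, a motif found in 13.6% of all windows. Neither held AATAAA, the textbook polyadenylation hexamer, which 19.6% of all windows held on 1 strand or the other. CG pairs numbered 5 in the Gm13261 window and 9 in that of Sfmbt2, against a median of 7. Counts differed at other listed starts. The window at the other start of Sfmbt2 held 3 matches to CCAAT and 16 CG pairs. Those at the other starts of Gm13261 held 5 matches and 3 CG pairs each. These matches describe letters in a window and say nothing of what binds there.

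The 3 clones had from 214379 to 442301 counts and the Control clones from 65278 to 486579, over 898 transcripts. The first column held between 54.4% and 57.5% of the counts in every clone of the date. Levels are given as counts per 1000000 (CPM) of these allele-assigned counts, so RNA that covers no difference between the strains is not in them. Even numbers made up 84.2% of all counts from 1 to 20, with 583 values of 1 and 3295 values of 2. Counts thus came mostly in steps of 2, and the exact binomial (Clopper-Pearson) 95% intervals below, which cover counting error alone and take every count as independent, are too narrow. Nothing in the labels says how clones were derived beyond their wells and plates, and p-values measure the spread between clones.

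Clones labelled Control did not form 1 group at this locus, and this bears on every result below. The 7 Control clones of plates 1, 2 and 5 had linc1319 at 552 to 833 CPM and Sfmbt2 at 882 to 1563 CPM. On plate 4, Control clones 7, 8 and 9 had linc1319 counts of 84, 74 and 56 in the first column and of 4, 0 and 0 in the second. Their Sfmbt2 levels were 127, 234 and 352 CPM. On plate 3, Control clone 6 had no linc1319 count at all, which allows up to 16.6 CPM (3 counts), and Sfmbt2 at 94.0 CPM. The other clone of plate 3, Control clone 5, had the highest linc1319 level of the date, 2993 CPM, with Sfmbt2 at 1016 CPM. In 63 Control clones of another date label linc1319 was at 374 to 1062 CPM and Sfmbt2 at 674 to 3355 CPM, and in 15 of a further label the ranges were 433 to 1030 and 518 to 1333 CPM. The low libraries of plates 3 and 4 thus lay below every Control clone of those dates in Sfmbt2. Taf3, a neighbour further away, was at 2053 to 2146 CPM on plate 4 and at 1882 to 2182 CPM on plates 1, 2 and 5. All 12 clones were kept as the reference, and results are also given without plates 3 and 4, a choice made after the values were seen. Tests of linc1319 and Sfmbt2 without these plates thus rest on a choice made from their own values.

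Of linc1319 itself, clone 1 had 15 counts in the first column and 4 in the second, clone 2 had 4 and 2, and clone 3 had 134 and 2. As totals these were 47.3, 13.6 and 634 CPM, a mean of 231.7 ± 349.1 CPM (SD, n = 3). The Control clones ran from 0 to 2993 CPM, with a median of 691.9 and a mean of 760.5 ± 756.6 (SD, n = 12). Clones 1 and 2 were thus low in both columns, and clone 3 was low in the second alone. The second column lay between 4.52 and 9.96 CPM in all 3 clones, where the Control median was 167.8 CPM, and the first was at 37.3, 9.04 and 625.1 CPM, where it was 486.9. Clone 3 lay among the Control clones in its total, and clones 1 and 2 lay below all of them except Control clone 6. The log2 fold change of the total was -1.79 ± 1.08 (SE), with an adjusted p of 0.961 (edgeR quasi-likelihood test, Benjamini-Hochberg over 507 transcripts). Without clone 3 it was -4.70 with an adjusted p of 0.328 by the same edgeR test. Taken separately, the first column differed by -2.38 (exact two-sided permutation test, p = 0.105) and the second by -2.85 (p = 0.156) on the log2 scale. Leaving out plates 3 and 4 removes 4 Control clones with a second column near 0. It also removes Control clone 5, which had the highest second column at 1158 CPM. The first column then differed by -3.02 (exact permutation, p = 0.0667) and the second by -4.54 (p = 0.00833, the smallest that 120 splits allow).

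**Figure D1:**
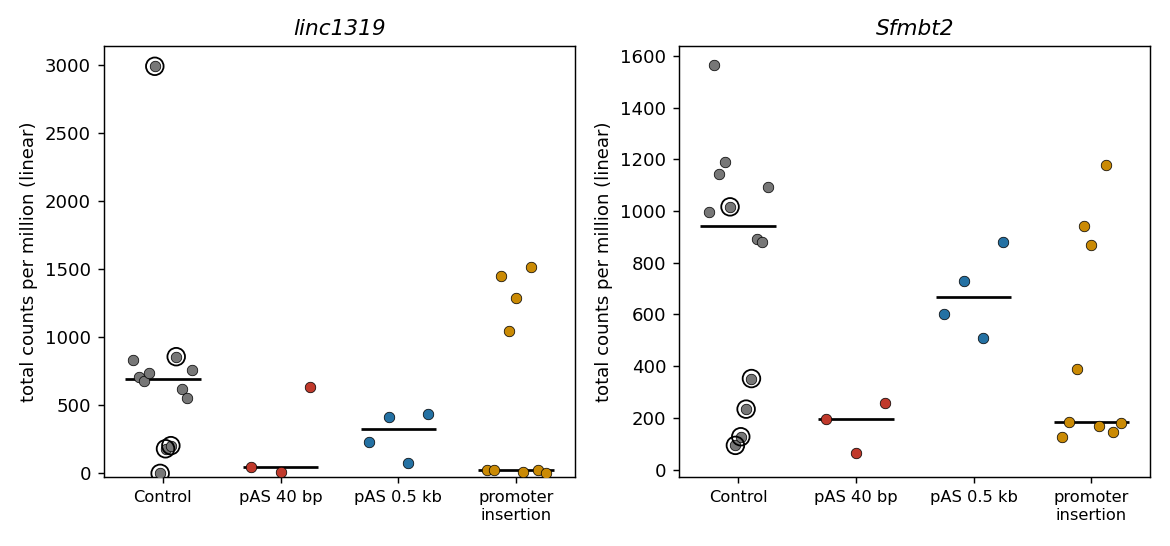
Total level (CPM of both allele columns, linear axis) of linc1319 and Sfmbt2 in each clone of the date, by group; each point is 1 clone, lines are group medians, and open circles mark the 5 Control clones of plates 3 and 4. Sfmbt2 is at 63.3 to 257 CPM in the 3 pAS 40 bp clones, and 4 of the 12 Control clones lie at 94.0 to 352 CPM.

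The first column held 78.9% of the linc1319 counts in clone 1 (95% interval 54.4 to 94.0%), 66.7% in clone 2 (22.3 to 95.7%) and 98.5% in clone 3 (94.8 to 99.8%). The median of 11 Control clones was 70.5%, with a range from 61.3% to 100%, where Control clones 7, 8 and 9 were at 95.5%, 100% and 100%. The intervals of clones 1 and 2 held the Control median, so their side could not be read at this depth. Clone 3 was away from the median by more than counting error but inside the Control range. With a minimum of 20 counts only clone 3 entered the test of the ratio, whose deviation exceeded that of Control by 2.96 on the log2 scale (exact permutation, p = 0.25, where 12 splits allow no less than 0.0833). With a minimum of 10 counts clone 1 entered too, and the difference was 0.92 (exact permutation, p = 0.821).

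Sfmbt2 was lower on average in the clones with the insertion. Clone 1 had 48 counts in the first column and 30 in the second, clone 2 had 10 and 18, and clone 3 had 54 and 1. These are totals of 194, 63.3 and 257 CPM, a mean of 171.3 ± 98.6 CPM (SD, n = 3). The Control clones ran from 94.0 to 1563 CPM, with a median of 943.2 and a mean of 798.1 ± 477.3 (SD, n = 12). All 3 clones lay below the 7 clones of plates 1, 2 and 5 and inside the range of the low clones of plates 3 and 4, or under it for clone 2.

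The log2 fold change of Sfmbt2 was -2.29 ± 0.76 (SE), the largest in size of the 507 transcripts tested, and its unadjusted edgeR p of 0.00785 was number 4 from the smallest. It did not pass the adjustment (edgeR, Benjamini-Hochberg, adjusted p = 0.616). By this rule 0 of 507 transcripts were called (0.0%), while 28 (5.52%) had an unadjusted edgeR p below 0.05, 14 lower (2.76%) and 14 higher (2.76%). In 1 transcript (0.197%) every clone with the insertion was below every Control clone and in 2 (0.394%) every one was above, and Sfmbt2 was not among these. DESeq2 called 0 as well. An exact two-sided permutation test of Sfmbt2 alone, added after the values were seen, gave a difference in log2 CPM of -2.005 (p = 0.0308, with 8 of 507 transcripts, 1.58%, lower at a p below 0.05 by the same test). Without plates 3 and 4 the fold change was -2.76 with an edgeR adjusted p of 0.00492, and Sfmbt2 was the 1 transcript called of 499 (0.2%). Those plates hold the Control clones lowest in Sfmbt2 and were picked with its values seen, so this call is not independent of the choice. For linc1319 the same edgeR fit gave -1.68 and an adjusted p of 0.854. Against the 90 Control clones of the 3 date labels that share this list of transcripts, most of them of other dates than the clones with the insertion, edgeR called 175 of 565 transcripts (31%), Sfmbt2 among them at -2.74 with an adjusted p of 3.28e-06. Fewer cells with the RNA and less RNA in each cell cannot be told apart in such libraries.

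**Figure D2:**
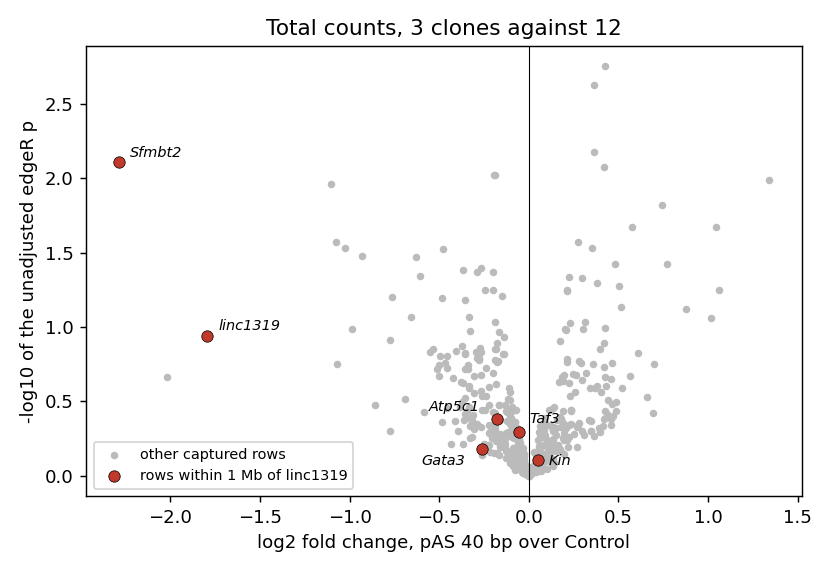
Log2 fold change of total counts (pAS 40 bp over Control) against -log10 of the unadjusted edgeR p for 507 transcripts; red points are the 6 tested rows within 1 Mb of linc1319, that row included. Sfmbt2 lies farthest to the left at -2.29, linc1319 is at -1.79, and the other 4 are between -0.26 and 0.05.

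Both allele columns of Sfmbt2 were lower at an unadjusted threshold of 0.05. The first column was at 119.5, 22.6 and 251.9 CPM in clones 1 to 3 against a Control median of 688.5 (range 38.7 to 1240), a difference of -2.31 on the log2 scale (exact permutation, p = 0.0286, where 11 of 507 transcripts, 2.17%, were lower at this threshold). The second was at 74.7, 40.7 and 4.67 CPM against a Control median of 226.6 (range 28.8 to 322), a difference of -2.41 (exact permutation, p = 0.0242, where 10 transcripts, 1.97%, were lower). In both columns at once 3 transcripts (0.592%) were lower. The pattern differed by clone: clones 1 and 2 were low in both columns, and clone 3 had the highest level of the 3 in the first column and a single count in the second. The first column no longer passed without clone 1 (-2.52, exact permutation, p = 0.0549) or clone 2 (-1.33, p = 0.275), nor the second without clone 2 (-2.67, exact permutation, p = 0.0549) or clone 3 (-1.44, p = 0.187).

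The first column held 61.5% of the Sfmbt2 counts in clone 1 (95% interval 49.8 to 72.3%), 35.7% in clone 2 (18.6 to 55.9%) and 98.2% in clone 3 (90.3 to 99.9%). In the Control clones the share ran from 41.2% to 87.0% with a median of 77.5%. Clone 3 thus lay above the Control range and clone 2 below it, while clone 1 lay inside. The intervals of Control clones 6, 10 and 11 also left out the Control median. Clones may thus differ by more than counting error in Control as well, though these intervals are too narrow. The absolute deviation of the Sfmbt2 ratio was larger than in Control by 2.01 on the log2 scale (exact permutation, p = 0.00275, the smallest that 364 splits allow). Control clone 6, with 17 Sfmbt2 counts, was under the minimum of 20 and not in this test. Its share, 41.2%, was farther from the Control median than that of clone 1. The absolute deviation was not tested with it included. Adjusted over 395 transcripts the p of the absolute deviation was 0.948. By absolute deviation 0 transcripts passed the adjustment (0.0%) and 11 (2.78%) had an unadjusted permutation p below 0.05. With so few splits no transcript could pass this adjustment alone, so the lack of calls says little.

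**Figure D3:**
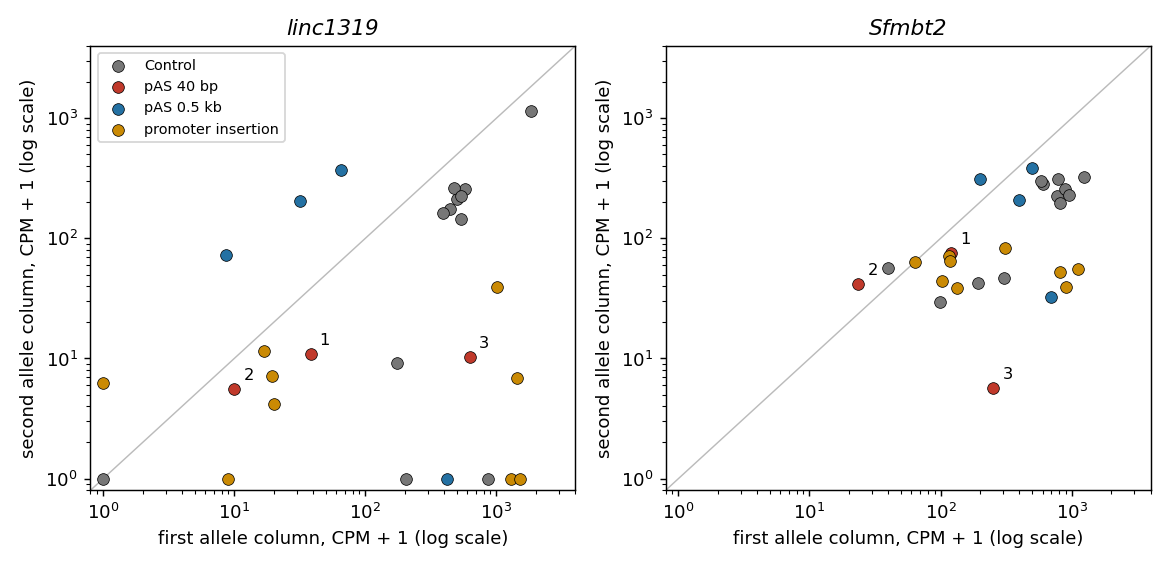
First against second allele column in CPM + 1 (both axes logarithmic) for linc1319 and Sfmbt2, 1 point per clone, coloured by group; numbers mark the 3 pAS 40 bp clones and the grey line marks equal columns. Clone 3 lies far below the line for both genes, with 9.33 CPM of linc1319 and 4.67 CPM of Sfmbt2 in the second column, while clones 1 and 2 are low on both axes.

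Signed by the side to which linc1319 leaned in the same clone, with the Control median as the zero, the Sfmbt2 ratio deviated by -1.11 in clone 1, 2.60 in clone 2 and 3.40 in clone 3 on the log2 scale. Positive values are to the same side as linc1319. The 3 clones thus did not share a sign, and the sign of clones 1 and 2 rests on 19 and 6 counts of linc1319. Around the median of all clones compared, the signed difference from Control was 1.54 (exact permutation, p = 0.0357 over 364 splits), with an adjusted p of 0.94 over 395 transcripts. It was 0.97 without clone 2 (exact permutation, p = 0.258), 0.72 without clone 3 (p = 0.303) and 2.98 without clone 1 (p = 0.0152). Adjusted calls were 0 of 395 (0.0%), and 20 (5.06%) had an unadjusted p below 0.05. Here too the number of splits was too small for a single transcript to pass the adjustment. Control clone 6, with no linc1319 count, had no side and was left out.

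The study's design asks whether a neighbour changes on the modified chromosome or on both. On the column where linc1319 was the lower in each clone, Sfmbt2 was at -1.61, -4.93 and -4.99 relative to the Control median on the log2 scale. On the other column it was at -2.54, -2.51 and -1.40. Which column is the lower rests on 19 linc1319 counts in clone 1 and 6 in clone 2. The side of these clones could not be read at that depth, so the split into lower and other column is uncertain for them. Every value was below the Control median, in both columns of all 3 clones. The labels do not say whether 1 or both chromosomes of a clone carry the insertion, so the 2 cases cannot be told apart here. The difference from Control was -3.38 for the lower column (exact permutation, p = 0.011) and -1.77 for the other (p = 0.0192). On the lower column the test no longer passed without clone 2 (-2.76, exact permutation, p = 0.0606) or clone 3 (-2.79, p = 0.0606). On the other column it no longer passed without clone 1 (-1.499, exact permutation, p = 0.0758) or clone 2 (-1.57, p = 0.0758), and without clone 3 it gave -2.07 (p = 0.0455). Control clones 7 to 9 were low in both columns too, at -2.95, -2.44 and -2.03 in the lower column and -2.81, -1.85 and -1.07 in the other.

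Within 1 Mb of linc1319 the capture held 12 other transcripts. Of these 5 had enough counts for the test of totals, and 7 were too low, with at most 6 counts in any clone. The 7 were 4930412O13Rik, 9230102O04Rik, Itih2, Itih5, Prkcq, 8030442B05Rik and Gm13293. The median log2 fold change over the 6 local rows tested, linc1319 included, was -0.22, against -0.03 over all 507. Besides Sfmbt2 and linc1319 the 4 local rows had a median of -0.12.

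Taf3, a subunit of the general transcription factor TFIID, was at 1986, 1944 and 2230 CPM in clones 1 to 3. The Control clones ran from 1882 to 2373 CPM with a median of 2073, and the clones sat inside that range. The log2 fold change was -0.06 ± 0.08 (SE), and the allele ratio, signed by the side of linc1319, differed by -0.09 (exact permutation, p = 0.602). Kin, a zinc finger protein that binds DNA, was at 809, 1008 and 1008 CPM. Its Control range was 561 to 1082 CPM with a median of 926.0, and the log2 fold change was 0.05 ± 0.17. The signed allele ratio of Kin differed by 0.19 (exact permutation, p = 0.319), with no clone outside the Control range of totals. Atp5c1, the gamma subunit of the mitochondrial ATP synthase, was at 243.9, 228.4 and 172.6 CPM against 161.2 to 333.2 in Control. Its fold change was -0.18 ± 0.21 and its signed allele difference was -0.19 (exact permutation, p = 0.517). Gata3, a zinc finger transcription factor of T cells and trophoblast, was at 134.4, 176.4 and 37.3 CPM against 31.5 to 340.4 in Control, a fold change of -0.26 ± 0.58. Its counts lay almost wholly in the first column, 54, 76 and 6 against 0, 2 and 2. Its ratio was not tested because clone 3 had 8 counts, under the minimum of 20. None of these 4 passed the adjusted test by edgeR.

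**Figure D4:**
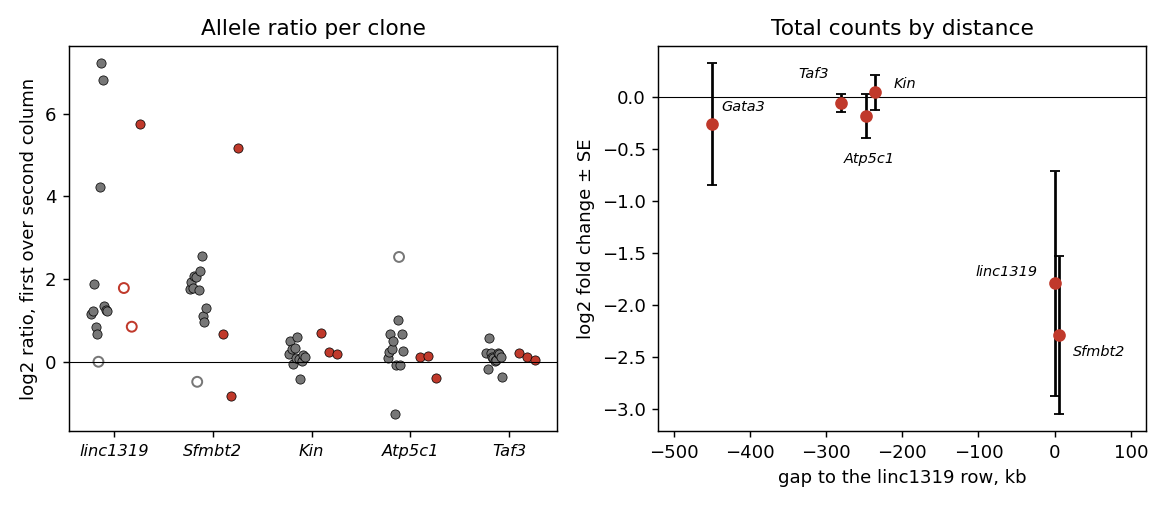
Left, log2 ratio of the first over the second column for 5 local genes, grey for Control and red for pAS 40 bp clones, with open points for rows under 20 counts in that clone; right, log2 fold change ± SE of the 6 tested local rows against their gap to linc1319 in kb, negative for the side of Gata3. Red points of Sfmbt2 lie on both sides of the Control points, and the gap of Sfmbt2 is 5.218 kb against 235.5 kb for Kin.

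The nearest insertion, a pAS at 0.5 kb in 4 clones of the same date, gave a direct comparison. Its linc1319 counts in the first and second columns were 5 and 33, 80 and 0, 3 and 28, and 10 and 58, which put each clone clearly on 1 side, and totals were 79.7 to 434 CPM. Sfmbt2 was at 603, 729.6, 509.3 and 881 CPM in those clones, so that the highest clone at 40 bp, 257 CPM, was below the lowest at 0.5 kb. Of the 496 transcripts tested 17 (3.43%) had every clone at 40 bp below every clone at 0.5 kb, and 36 (7.26%) had every one above. The log2 fold change of 40 bp over 0.5 kb was -2.03 ± 0.44 (SE) for Sfmbt2 (edgeR, unadjusted p = 0.000931, adjusted p = 0.115) and -0.36 ± 1.02 for linc1319 (edgeR, adjusted p = 0.933). Of 496 transcripts 0 were called (0.0%) and 44 (8.87%) had an unadjusted edgeR p below 0.05. The call depends on the tool and on the clones: DESeq2 gave Sfmbt2 an adjusted p of 0.000465, and edgeR gave 0.0491 without clone 2, 0.0482 without clone 3, 0.384 without clone 1 and 0.37 in a fit of all 28 clones of the date.

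The signed deviations of the Sfmbt2 ratio at 0.5 kb were 0.88, 2.59, 2.40 and 1.40, all to the side of linc1319. The mean at 40 bp differed from these by -0.19 (exact permutation, p = 1.0 over 35 splits, adjusted p = 1.0 over 2 pairs), with a spread at 40 bp from -1.11 to 3.40. Against the Control clones, Sfmbt2 at 0.5 kb had a log2 fold change of -0.23 (edgeR, adjusted p = 0.838). Both groups share the same Control clones, and the values stand side by side.

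In the 9 linc1319-PromoterInsertion clones Sfmbt2 ran from 126.3 to 1179 CPM with a median of 185.9, and linc1319 from 5.31 to 1517 CPM with a median of 26.3. Clones 3, 4, 5 and 7 of that group had linc1319 at 1453, 1048, 1289 and 1517 CPM, with 2, 4, 0 and 0 second-column counts. The other clones of that group were at 5.31 to 26.3 CPM and low in both columns. The 3 clones at 40 bp lay within the range of that group for linc1319 and, save clone 2, for Sfmbt2. The log2 fold change of 40 bp over the promoter insertion was -1.41 ± 0.78 (SE) for Sfmbt2 (edgeR, adjusted p = 0.566) and -1.37 ± 1.62 for linc1319 (edgeR, adjusted p = 0.855). The signed deviations differed by 0.69 (exact permutation, p = 0.555 over 220 splits, adjusted p = 1.0 over 2 pairs). Of 514 transcripts 50 (9.73%) had an unadjusted edgeR p below 0.05 and 2 were called by edgeR (0.389%): Pfkm, the muscle-type phosphofructokinase, by 0.63 ± 0.13 with an adjusted p of 0.0472, and Cald1, caldesmon, by 0.59 ± 0.11 with an adjusted p of 0.0417. Insertions at other positions have other date labels and are set here as levels alone: Sfmbt2 was at 511.1 ± 224.7 CPM at 2 kb (SD, n = 5) and 577.3 ± 255.8 CPM at 4 kb (SD, n = 7).

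Stem cell markers in the capture were 3 of the 16 listed. Nanog, a core pluripotency factor, was at 26970 to 32930 CPM against 24750 to 32120 in Control, a log2 fold change of 0.00 ± 0.08. Dppa3, a maternal factor that marks the naive state, gave 0.06 ± 0.26, and Tcl1, an Akt cofactor, gave -0.48 ± 0.20 (edgeR, unadjusted p = 0.0301, adjusted p = 0.825). Among 8 mesoderm and endoderm genes, 2 were captured: Eomes, a T-box factor, at 223.9 to 577.4 CPM against 160.8 to 390.5 in Control (0.74 ± 0.28, edgeR adjusted p = 0.768), and Gsc at 0.05 ± 0.51. The neural filament gene Nes gave 0.23 ± 0.30. No listed marker of trophoblast, 2-cell-like cells or fibroblast feeders was in the capture, so those cell types could not be checked. Of the 14 Polycomb genes listed 4 were captured, and besides Sfmbt2 the PRC2 subunit Eed gave 0.19 ± 0.32, the DNA-binding factor Yy1 0.08 ± 0.10 and the PRC1 subunit Phc1 0.06 ± 0.17. Over these lists 0 genes passed the adjusted edgeR test.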

How the data were processed

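Per the labels, libraries were poly(A)+ RNA-seq with hybrid selection on a barcoded pool. Each deposited file holds whole-number counts, 1 row per transcript and 1 column per allele, that no normalization visibly changed. The submitters' processing notes name mm9 as the build. How reads were aligned, counted, filtered and assigned to alleles is not given in the sources used here. The files list 903 transcripts, of which 5 with the counts of an overlapping one were dropped. No 2 libraries of the date were identical (378 pairs).

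Totals (the sum of both columns) were tested with edgeR 4.0.16 in R 4.3.3 (TMM, quasi-likelihood F test, mean count of at least 10, Benjamini-Hochberg, threshold 0.05), with DESeq2 1.42.0 as an alternative, and checked on simulated counts. Allele ratios are log2 of first over second column (pseudocount 0.5, at least 20 counts), tested by exact two-sided permutation over clones with NumPy 2.4.6. Binomial intervals were computed with SciPy 1.17.1. Transcripts named are those within 1 Mb, called ones, the listed genes, those with the smallest allele p, and the 3 highest in Control; Mex3a and Tcof1, outside the Control range, were added after their values were seen. The members and lists were chosen with earlier results of these data known. Sequences are RefSeq's. Of the 13 local rows, 11 matched its promoter table.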

Additional observations from a re-analysis of the deposited data

Results flagged for a closer look

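The log2 ratio of linc1319 in clone 2 of the pAS insertion at 0.5 kb was 7.33, far from the other 3 clones of that group, which lay between -3.03 and -2.48 (gap over range 0.947). That clone had 80 counts in the first column and 0 in the second, so the ratio is bounded by the pseudocount. Such a gap was looked for in 8 sets of values, and chance gives one in about 1 of 20. It bears on the comparison of the 40 bp insertion with that group through the sign given to the Sfmbt2 ratio.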

How the results depend on the processing

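No paired analysis was possible because the clones of this date carry wells and, for Control, plates, but no replicate numbers shared between groups. Against the 90 Control clones of the 3 date labels with this list of transcripts, 175 of 565 transcripts were called by edgeR, linc1319 gave -1.58 (adjusted p 0.0139) and Sfmbt2 -2.74 (adjusted p 3.28e-06), and the linc1319 ratio, with clone 3 alone, differed by 4.10 (permutation p 0.0333). That ratio differed by 1.85 without plate 5 and by 0.92 once clone 1 entered at 10 counts, and passed in no other alternative run. Without plates 3 and 4 (added after seeing the data) 1 was called, Sfmbt2 at -2.76, and its signed ratio differed by 1.96. In that setting linc1319 differed by -4.60 on its lower column, a column chosen from linc1319 itself, and by -2.96 on the other. The added permutation test of Sfmbt2 gave -2.005 (exact permutation, p 0.0308). The totals of linc1319 ran from -4.70 to -1.19 and of Sfmbt2 from -2.71 to -1.84 with 1 of the 3 clones left out, with no call.

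The signed ratio of Sfmbt2 no longer passed with fractions (0.142), at 50 counts (1.13), or without plate 1 (1.35), 2 (1.49), 3 (1.42) or 4 (1.95). It passed without plate 5 (2.94). With 1 clone left out it ran from 0.72 to 2.98 and missed the threshold without clone 2 or 3; by absolute deviation 11 transcripts had an unadjusted p below 0.05, not 20. With 1 clone left out, Sfmbt2 ran from -4.48 to -2.76 on the lower column and -2.07 to -1.499 on the other, and from -3.09 to -1.33 and -3.13 to -1.44 in the first and second columns. The other column of Sfmbt2 also missed the threshold without plate 1 (-1.67), 2 (-1.63), 3 (-1.70) or 5 (-1.34). For linc1319, with all clones, the lower column differed by -3.24 and the other by -3.03. The lower column is chosen from this same row, so its values are a description and not a test. With 1 clone left out, the lower column ran from -3.47 to -2.51 and the other from -4.64 to -1.97. Without plate 4 these were -4.84 and -3.29, and without plate 5 the other was -2.62.

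Against 0.5 kb, DESeq2 called 5 transcripts (Sfmbt2 -2.04), and with 1 clone left out edgeR called 0 to 4 (Sfmbt2 -2.45 to -1.61). Against the promoter insertion, DESeq2 called 5, a fit of all 28 clones 1, and with 1 clone left out 0 to 6. The signed ratio of Sfmbt2 changed sign without clone 1 against 0.5 kb (1.18) and without clone 3 against the promoter insertion (-0.20), with ranges of -1.08 to 1.18 and -0.20 to 2.06. The cause was not tested. Without clone 3 the linc1319 ratio has no value. The precision is limited by 6 to 136 linc1319 counts and 28 to 78 Sfmbt2 counts in the 3 clones.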

Other observations

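Outside the window, 3 transcripts had all 3 clones with the insertion outside the range of the Control clones, 1 lower (0.197%) and 2 higher (0.394%). Pfkm was higher, at a mean of 2889 against 2098 CPM (log2 fold change 0.42 ± 0.11 SE, edgeR adjusted p = 0.604), and so was Mex3a, an RNA-binding protein, at 2564 against 1952 CPM (0.36 ± 0.12, edgeR adjusted p = 0.616). Tcof1, a nucleolar protein, was the lower one, at 16130 against 17970 CPM (-0.19 ± 0.07, edgeR adjusted p = 0.616). All 3 were chosen after their values were seen, and none passed the adjusted test.

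Signed by the side of linc1319 in each clone, the allele ratio of Ptbp1, a splicing repressor, differed by 0.65. The exact permutation p was 0.00455, the smallest that 220 splits allow, with an adjusted p of 0.723 over 395 transcripts. A single transcript could not pass the adjustment with that number of splits. By absolute deviation Ptbp1 differed by 0.09 (exact permutation, p = 0.582). The transcripts highest in Control, Slc2a3, Nanog and Igf2bp1, had log2 fold changes of -0.11, 0.00 and -0.15, none of them called by edgeR.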
